A study of Mus musculus with 4 samples.

Results

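Retrogenes are gene copies made when a spliced mRNA is reverse transcribed and inserted elsewhere in the genome, so they lack the introns of the gene they came from. Many mouse genes of this kind have a parent on the X chromosome and a copy on an autosome that is used in the testis. At the pachytene stage of male meiosis the X and Y chromosomes are packed into the sex body and largely silenced (meiotic sex chromosome inactivation). Autosomal copies are thought to stand in for such silenced parents in male germ cells. The 5 pairs described here are Pgk2 and Pgk1, Pdha2 and Pdha1, Rpl10l and Rpl10, Cstf2t and Cstf2, and Rbmxl2 and Rbmx, with the retrogene named before its parent. They were picked by name, and their 10 genes were found by matching the deposited Ensembl identifiers to gene symbols of the GENCODE M21 annotation (GRCm38). All 10 were present among the 55364 genes of the deposited tables, and all 10 passed the expression filter that left 16571 genes for testing.

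The libraries came from pachytene spermatocytes of mouse testis. KK cells (2 libraries) were homozygous for a knock-in at Ddx4, the gene of a germ-cell RNA helicase that is a core protein of germ granules, and WT cells (2 libraries) were wild type. Neither the age and strain of the mice nor the number of mice behind each library is given in the labels, so a p-value measures only the spread between these libraries, which may be technical. Germ cells were freed by stepwise enzyme digestion and separated by size in an elutriator into an enriched fraction, with purity judged by DAPI staining. The library kit does not mark strand. Expected counts summed to 19438570 and 17970207 in KK and to 18156099 and 19246124 in WT. Ddx4 itself had 54.44 and 52.49 TPM (an abundance scaled by transcript length to the same total in every library) in KK, against 264.96 and 272.92 TPM in WT, so its measured level was low in both libraries labelled KK. The labels do not say what the knock-in changes in the Ddx4 transcript.

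The retrogenes lie on 5 different autosomes and each has 1 exon in the annotation. Pgk2 is at 17:40207015-40208640 on the minus strand, Pdha2 at 3:141210004-141212355 on the minus strand, Rpl10l at 12:66283379-66284401 on the minus strand, Cstf2t at 19:31082837-31087069 on the plus strand and Rbmxl2 at 7:107209445-107210916 on the plus strand (all GRCm38). The parents are all on the X chromosome, with up to 11 exons for Pgk1 (106187100-106203699), 11 for Pdha1 (160122209-160138413), 7 for Rpl10 (74270812-74273135), 14 for Cstf2 (134059187-134086819) and 10 for Rbmx (57383530-57393036). The coding sequences of the pairs have drifted apart, which decides whether reads can be assigned to the right member of a pair. Over the aligned coding bases of their annotated transcripts, identity was 84.7% for Rpl10l and Rpl10, 79.3% for Pgk2 and Pgk1, 76.4% for Cstf2t and Cstf2, 76.3% for Pdha2 and Pdha1 and 68.3% for Rbmxl2 and Rbmx. No stretch of 50 bases was shared within any pair (0 of the retrogene's windows in all 5). The following windows of 60 coding bases, written 5′ to 3′ from the GENCODE M21 transcripts, show how often a short read meets a difference. They start at the first coding base except in the Pdha pair, where they run over bases 26 to 85 of Pdha2 and 23 to 82 of Pdha1, and capitals mark the bases that differ within the pair, 20 for Pgk, 26 for Pdha, 9 for Rpl10, 13 for Cstf2 and 16 for Rbmx.
Pgk2: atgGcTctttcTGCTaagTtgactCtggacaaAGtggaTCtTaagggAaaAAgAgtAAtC
Pgk1: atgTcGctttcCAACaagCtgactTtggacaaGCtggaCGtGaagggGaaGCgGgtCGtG
Pdha2: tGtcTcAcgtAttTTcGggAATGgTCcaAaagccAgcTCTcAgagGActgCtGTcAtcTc
Pdha1: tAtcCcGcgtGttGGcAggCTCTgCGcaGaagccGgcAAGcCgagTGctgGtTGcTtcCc
Rpl10l: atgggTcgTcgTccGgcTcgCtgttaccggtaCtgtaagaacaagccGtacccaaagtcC
Rpl10: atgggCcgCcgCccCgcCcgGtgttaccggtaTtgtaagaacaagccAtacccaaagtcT
Cstf2t: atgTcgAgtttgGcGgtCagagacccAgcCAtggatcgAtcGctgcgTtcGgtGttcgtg
Cstf2: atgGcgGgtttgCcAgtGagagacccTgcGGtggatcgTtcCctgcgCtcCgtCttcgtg
Rbmxl2: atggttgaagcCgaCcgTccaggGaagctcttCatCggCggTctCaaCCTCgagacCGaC
Rbmx: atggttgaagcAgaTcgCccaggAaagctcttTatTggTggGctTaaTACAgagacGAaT

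In KK cells the 5 X-linked parents were all higher than in WT cells, by 1.81-fold to 3.79-fold (Rbmx did not pass under 6 of 15 alternatives, and Pdha1 was left untested by a filter at a mean of 1 CPM), while none of the 5 retrogenes was higher, except that Pgk2 was when libraries were scaled by size alone. Cstf2t and Pdha2 were lower in KK, and Pgk2, Rpl10l and Rbmxl2 did not pass the test. The retrogene was the more abundant member of every pair in every library, but its excess over the parent was smaller in both KK libraries than in both WT libraries for all 5 pairs. Fewer cells of a type and less RNA per cell cannot be told apart in such bulk samples. The counts of members and of pairs have to be read against a broad difference between the genotypes. Of the 16571 genes tested, 43.7% passed at an adjusted p of 0.05 (edgeR quasi-likelihood test with Benjamini-Hochberg adjustment over all genes), 22% as higher and 21.7% as lower in KK. Among the 568 tested X-linked genes 58.6% passed, 57.6% as higher and 1.06% as lower in KK, and their median log2 fold change was 0.89. Among the 15868 tested autosomal genes 43% passed, 20.4% as higher and 22.6% as lower, and the median was -0.01. The parents' 5 of 5 and their median log2 fold change of 1.26 stand beside the X-linked figures, and the retrogenes' 0 higher and 2 lower of 5, with a median of -0.06, stand beside the autosomal ones.

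**Figure D1:**
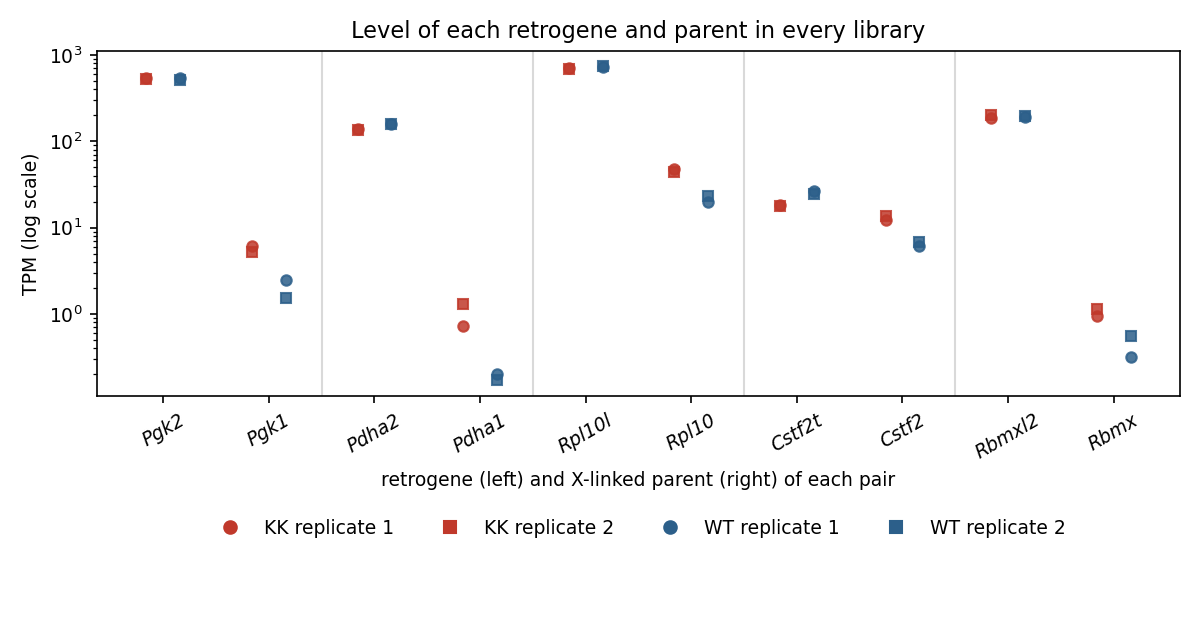
Level of the 10 genes in each library in TPM on a log axis, retrogene left and parent right within each pair, KK in red left of WT in blue, with circles for replicate 1 and squares for replicate 2. The KK points lie above the WT points for all 5 parents; for the retrogenes the groups lie close together, and Cstf2t and Pdha2 passed the test, both lower in KK (Pgk2 passed as higher with scaling by library size alone, and Rpl10l as lower with a length trend or without KK replicate 1).

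Phosphoglycerate kinase makes ATP in glycolysis, and Pgk2 encodes its germ-cell form, which mouse sperm need for motility. Pgk2 had 539.98 and 533.20 TPM in KK, against 538.48 and 519.51 TPM in WT. The groups overlap, and the log2 fold change was 0.02 ± 0.04 (SE; edgeR quasi-likelihood test, adjusted p = 0.62), and the ratio of scaled counts was 1.02 with an exact 95% interval of 0.998 to 1.04, which covers counting error only. Pgk1, the form used by most other cells, had 6.04 and 5.15 TPM in KK, against 2.45 and 1.54 TPM in WT. Both KK libraries were above both WT libraries, and the log2 fold change of 1.5 ± 0.23 corresponds to 2.83-fold (edgeR quasi-likelihood test, adjusted p = 4.1e-06). The expected counts behind this were 143.85 and 111.89 in KK against 51 and 34 in WT, all of them on the transcript Pgk1-201. Pgk1 therefore supplied 1.11% and 0.957% of the TPM of the pair in KK, against 0.453% and 0.296% in WT. The gain of Pgk1 was small beside the level of Pgk2, and the summed level of the pair was 546.02 and 538.35 TPM in KK against 540.93 and 521.05 TPM in WT.

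The Pdha genes encode the alpha subunit of the E1 component of pyruvate dehydrogenase, the mitochondrial complex that turns pyruvate into acetyl-CoA. Pdha2 had 139.85 and 135.50 TPM in KK, against 157.89 TPM in each WT library. Both KK libraries were lower, by a small amount that passed the test (log2 fold change -0.19 ± 0.04, 0.874-fold; edgeR quasi-likelihood test, adjusted p = 0.00011). Pdha1 had 0.72 and 1.30 TPM in KK, against 0.20 and 0.17 TPM in WT. It was higher in both KK libraries, with a log2 fold change of 1.92 ± 0.50 (3.79-fold; edgeR quasi-likelihood test, adjusted p = 0.0027), the highest fold of the 10 genes on the lowest level in WT. The depth behind it is thin: 53 counts in KK stood against 13 in WT, and the exact 95% interval of the ratio ran from 2.07 to 7.69. The TPM of KK replicate 2 also owed 0.73 of its 1.30 to 3.25 counts placed on a short retained-intron transcript, Pdha1-202, while the main transcript Pdha1-201 had 0.72 and 0.57 TPM in KK against 0.20 and 0.17 TPM in WT. On that transcript alone the KK libraries were again both higher. Exons of Pdha1 overlap those of Map3k15 on the other strand, whose reads this kit cannot separate, and Map3k15 was listed at 0.11 and 0.22 TPM in KK against 0.07 and 0.26 TPM in WT.

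Rpl10 encodes a protein of the large ribosomal subunit, and male mice lacking its copy Rpl10l fail in meiosis. Rpl10l was the most abundant of the 10 genes in all 4 libraries, with 704.61 and 690.58 TPM in KK, against 725.18 and 736.23 TPM in WT. Both KK values lay below both WT values, but by a margin that did not pass the test (log2 fold change -0.06 ± 0.04; edgeR quasi-likelihood test, adjusted p = 0.16). The ratio of scaled counts was 0.957, with an exact 95% interval for counting error of 0.936 to 0.98. Without KK replicate 1 it passed as lower (log2 fold change -0.095; edgeR quasi-likelihood test, adjusted p = 0.034). Where a library is left out, here and below, its group is 1 library that is assumed to vary like the other group. Rpl10l also passed with a length trend (-0.20; edgeR adjusted p = 9.6e-06), but not with effective lengths as an offset (-0.083; edgeR adjusted p = 0.13). Rpl10 had 48.15 and 44.03 TPM in KK, against 19.57 and 23.02 TPM in WT. This was the largest gain in absolute level among the parents, 24.8 TPM between the group means, and it was 2.2-fold (log2 fold change 1.14 ± 0.13; edgeR quasi-likelihood test, adjusted p = 5.3e-08). Rpl10 supplied 6.40% and 5.99% of the TPM of the pair in KK, against 2.63% and 3.03% in WT. Among its 11 annotated isoforms, Rpl10-211 had 19.69 and 26.11 TPM in KK against 4.74 and 12.47 TPM in WT, and Rpl10-201 had 19.69 and 15.29 TPM in KK against 14.46 and 8.66 TPM in WT. Isoforms were not tested, but the KK values of both lay above their WT values. Rpl10-202 was estimated at 59.26 and 18.85 counts in KK and was listed at 0 in both WT libraries, an estimate that rests on how reads were divided between transcripts that overlap.

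CstF-64, the product of Cstf2, binds the region downstream of the poly(A) site and helps cleave the mRNA 3′ end; Cstf2t encodes its testis form, and male mice without it are infertile. In this pair the members' levels were closest to each other, and the retrogene had the largest decrease of the 5. Cstf2t had 18.47 and 17.58 TPM in KK, against 26.58 and 24.57 TPM in WT. Both KK libraries were lower, at 0.707-fold (log2 fold change -0.50 ± 0.06; edgeR quasi-likelihood test, adjusted p = 1.9e-07), or 1.42-fold higher in WT. Cstf2 had 12.20 and 13.61 TPM in KK, against 6.04 and 6.83 TPM in WT. It was higher in both KK libraries, at 1.81-fold (log2 fold change 0.86 ± 0.10; edgeR quasi-likelihood test, adjusted p = 3.9e-08). The opposite changes nearly cancelled in the sum, which was 30.67 and 31.19 TPM in KK against 32.62 and 31.40 TPM in WT, while the share held by the parent was 39.8% and 43.6% in KK against 18.5% and 21.8% in WT. Among the Cstf2 isoforms, Cstf2-202 had 5.81 and 8.33 TPM in KK against 1.85 and 3.15 TPM in WT, and Cstf2-203 had 4.69 and 2.47 TPM in KK against 0.75 and 1.52 TPM in WT. The KK values of both lay above their WT values, whereas the longest coding isoform, Cstf2-201, overlapped between the groups at 1.68 and 2.79 TPM in KK against 3.19 and 2.14 TPM in WT. Cstf2t lies inside Prkg1 on the other strand with no shared exon; Prkg1 was listed at 78.95 and 59.39 TPM in KK against 29.07 and 36.03 TPM in WT, values that were higher in KK, unlike those of Cstf2t. Nox1, whose exons overlap Cstf2 on the other strand, was listed at 0 TPM in all 4 libraries.

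Rbmx and its copies encode hnRNP G proteins, RNA-binding factors that act in splicing, and male mice without Rbmxl2 arrest in meiosis. Rbmxl2 had 185.26 and 203.24 TPM in KK, against 191.74 and 197.01 TPM in WT. The WT values lie between the KK values, and the ratio of scaled counts was 0.999 with an exact 95% interval of 0.965 to 1.03 (edgeR quasi-likelihood test, adjusted p = 0.99). Rbmx had 0.94 and 1.14 TPM in KK, against 0.32 and 0.55 TPM in WT. Both KK libraries were higher, at 2.4-fold (log2 fold change 1.26 ± 0.46; edgeR quasi-likelihood test, adjusted p = 0.027), on 56 counts in KK against 22 in WT. This is the least firm call among the parents, since without KK replicate 2 (log2 fold change 1.08, edgeR adjusted p = 0.17) or without WT replicate 1 (0.95, edgeR adjusted p = 0.22) it did not pass. Nor did it with DESeq2 (adjusted p = 0.14), with edgeR and effective lengths (adjusted p = 0.087) or with limma on log2(TPM + 0.1) (adjusted p = 0.077) and log2(TPM + 1) (adjusted p = 0.06). Rbmxl1, a further autosomal copy of Rbmx, had 19.64 and 20.52 TPM in KK, against 25.31 and 30.23 TPM in WT. It was lower in KK (log2 fold change -0.46 ± 0.10; edgeR quasi-likelihood test, adjusted p = 0.00052), so the 2 autosomal copies of this family did not share a call.

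**Figure D2:**
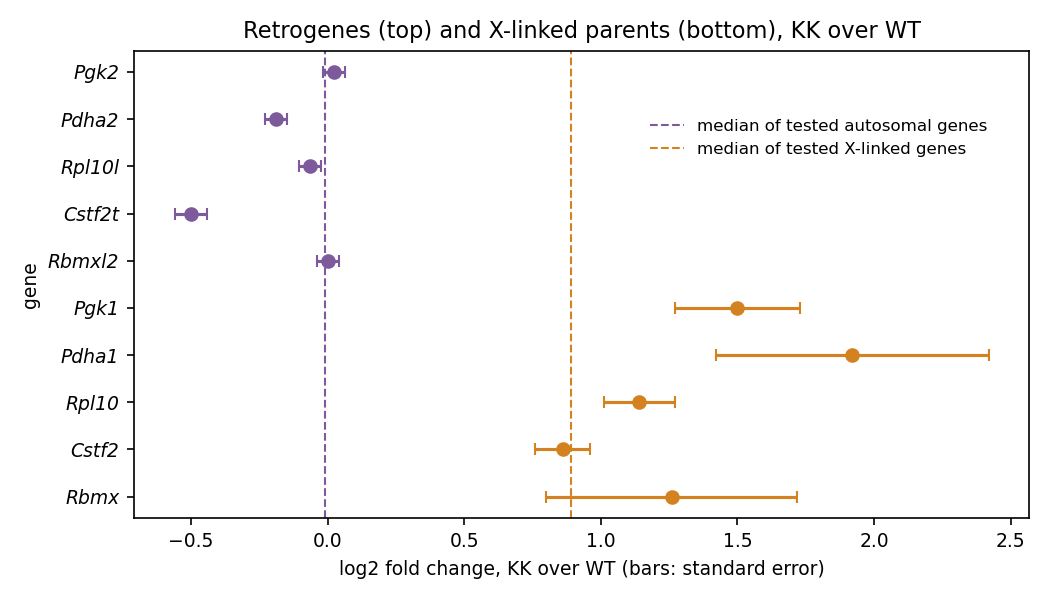
Log2 fold change of KK over WT for the 5 retrogenes (purple, top) and the 5 X-linked parents (orange, bottom), with standard errors as bars. Dashed lines mark the median of tested autosomal genes at -0.01 and of tested X-linked genes at 0.89; the retrogenes lie between -0.50 and 0.02 and the parents between 0.86 and 1.92.

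Among themselves the 10 genes kept nearly the same order of level. In every library Rpl10l came first, then Pgk2, Rbmxl2 and Pdha2. The places of Rpl10 and Cstf2t differed by genotype, because Rpl10 (48.15 and 44.03 TPM) stood above Cstf2t (18.47 and 17.58 TPM) in KK, and Cstf2t (26.58 and 24.57 TPM) stood above Rpl10 (19.57 and 23.02 TPM) in WT. Cstf2 and Pgk1 followed in all 4 libraries, and Rbmx and Pdha1 were last. Those 2 changed places between the KK libraries, whereas in WT both Rbmx values (0.32 and 0.55 TPM) lay above both Pdha1 values (0.20 and 0.17 TPM). The change of places rests on 3.25 counts on the retained-intron transcript Pdha1-202 in KK replicate 2. On Pdha1-201 alone Pdha1 had 0.72 and 0.57 TPM in KK, below Rbmx at 0.94 and 1.14 TPM. The WT order is thin too, with 8 and 14 counts of Rbmx against 7 and 6.40 of Pdha1. Summed over the 5 retrogenes the level was 1588.2 and 1580.1 TPM in KK against 1639.9 and 1635.2 TPM in WT, and over the 5 parents it was 68.0 and 65.2 TPM in KK against 28.6 and 32.1 TPM in WT. The retrogenes' sum was thus lower, and the parents' sum higher, in both KK libraries.

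The parents' changes were set among those of other X-linked genes, and they lay in the middle and upper part of that range. Within the 568 tested X-linked genes the log2 fold change of Cstf2 stood at the percentile 48.2, Rpl10 at 67.4, Rbmx at 72.7, Pgk1 at 80.8 and Pdha1 at 90.1. Their levels in WT were spread more widely over that chromosome, from the percentile 7.4 for Pdha1 and 22.7 for Rbmx to 84.7 for Cstf2 and 93.5 for Rpl10, with Pgk1 at 62.3. Among autosomal genes the fold changes of Rbmxl2 (percentile 51.6), Pgk2 (53.7), Rpl10l (44.5) and Pdha2 (30.3) lay in the middle of the range and that of Cstf2t (8.8) towards its lower end. The retrogenes other than Cstf2t were among the most abundant autosomal genes in WT, at percentiles from 91.7 for Pdha2 to 98.9 for Rpl10l, with Cstf2t at 67.3.

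The ratio of retrogene to parent was formed within each library, so that scaling between libraries cancels. Pgk2 exceeded Pgk1 89.4-fold and 104-fold in KK, against 220-fold and 337-fold in WT. Pdha2 exceeded Pdha1 194-fold and 104-fold in KK, against 789-fold and 929-fold in WT. The 104-fold of KK replicate 2 rests in part on the 3.25 counts on Pdha1-202, which gave 0.73 of the 1.30 TPM of Pdha1. Rpl10l exceeded Rpl10 14.6-fold and 15.7-fold in KK, against 37.1-fold and 32-fold in WT. In these 3 pairs the higher KK ratio was below the lower WT ratio. Cstf2t exceeded Cstf2 1.51-fold and 1.29-fold in KK, against 4.40-fold and 3.60-fold in WT. Rbmxl2 exceeded Rbmx 197-fold and 178-fold in KK, against 599-fold and 358-fold in WT. The groups did not overlap in these pairs either. As a difference of mean log2 ratios, KK minus WT, the change was -1.5 for Pgk, -2.59 for Pdha, -1.18 for Rpl10, -1.51 for Cstf2 and -1.31 for Rbmx. Each had a two-sided exact permutation p of 0.333, which is the smallest that 2 libraries against 2 can give, so no single pair can pass 0.05 by that test. Formed from scaled counts instead of TPM, the change of the Pdha pair was -2.14, and the other pairs lay between -1.5 and -1.19.

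**Figure D3:**
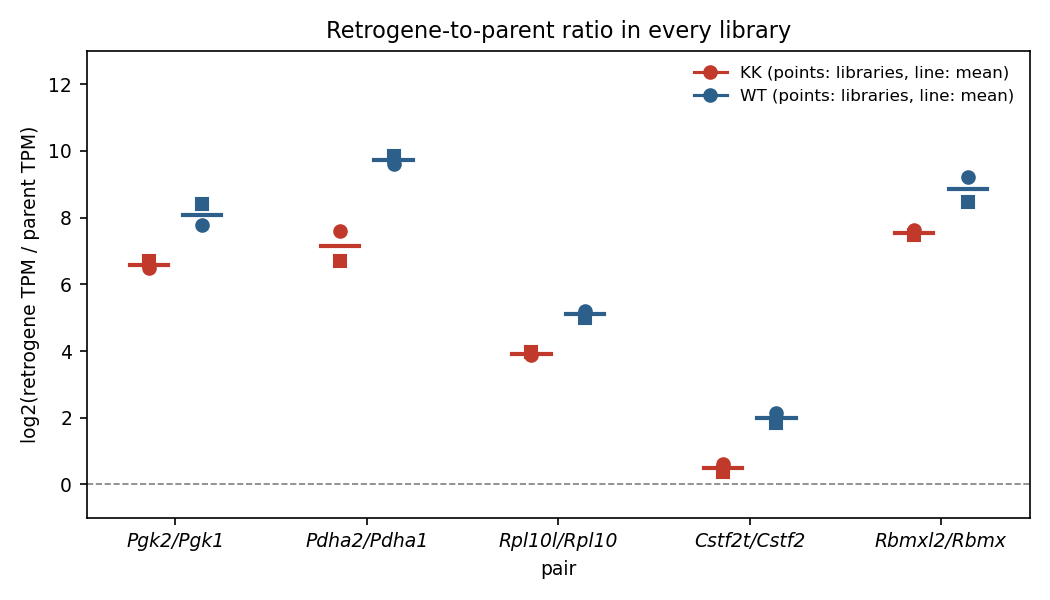
Log2 ratio of retrogene TPM to parent TPM in each library for the 5 pairs, KK in red left of WT in blue, circles for replicate 1, squares for replicate 2 and a line at the mean. All KK points lie below the WT points of their pair, with differences of means (KK minus WT) from -2.59 to -1.18, and above the dashed line at 0, where both members would be equal. The -2.59 of the Pdha pair rests in part on 3.25 counts on a retained-intron transcript in KK replicate 2.

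More pairs with an X-linked parent and an autosomal copy were set beside these. Of 16 such pairs, 10 had a lower retrogene-to-parent ratio in both KK libraries than in both WT libraries, 0 had a higher one and 6 overlapped. Some of the 10 rest on parents with too few counts to be tested. Rpl39 had 9 and 9 counts in KK against 1 and 4 in WT, and Naa10 had 10 and 10 against 4 and 3. The 10 also include Rbmxl1 with Rbmx, a parent already counted in the 5 named pairs. The median change over the 16 pairs was -1.11 on the log2 scale, with a range of -2.12 to 0.19. Both ends of the range were pairs whose groups overlapped, Gk2 with Gk at -2.12 and G6pd2 with G6pdx at 0.19. Gk had 16 and 13 counts in KK against 2 and 9 in WT. Over all genes tested, the median log2 fold change was 0.89 for X-linked and -0.01 for autosomal genes. The share of lower ratios among arbitrary pairs of an autosomal and an X-linked gene was not computed. A lower ratio in KK is thus not shown to be particular to retrogene pairs. The corresponding 16 retrogenes were all tested, and 2 (12.5%) were higher in KK, 3 (18.8%) lower and 11 not called, beside 20.4% higher and 22.6% lower among all autosomal genes; their median log2 fold change was -0.04. With scaling by library size alone 5 were higher, and with a length trend 9 were lower. The 2 that were higher were G6pd2, a copy of the glucose-6-phosphate dehydrogenase gene of the pentose phosphate pathway (log2 fold change 0.94 ± 0.11; edgeR quasi-likelihood test, adjusted p = 2.9e-08), and Tktl2, a transketolase-like gene (0.90 ± 0.04; edgeR adjusted p = 2.3e-16). The lower ones were Rbmxl1, Ubl4b (-0.39 ± 0.06; edgeR adjusted p = 9.5e-06) and D1Pas1, a copy of the RNA helicase gene Ddx3x (-0.38 ± 0.04; edgeR adjusted p = 1.9e-09). Of the 15 parents other than Rbmx, 11 were tested, and 6 of these (54.5%) were higher in KK and 0 lower, with a median of 0.96, a share near the 57.6% of all X-linked genes. Prps1, which makes the nucleotide precursor PRPP, was 3.11-fold higher (log2 fold change 1.64 ± 0.21; edgeR adjusted p = 2.1e-07), and Rps4x, a ribosomal protein gene, was 2.09-fold higher (1.07 ± 0.24; edgeR adjusted p = 0.00066). The count of 6 was 3 without KK replicate 1 and 3 without WT replicate 2, and the count of 3 lower retrogenes was 5 without KK replicate 1.

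**Figure D4:**
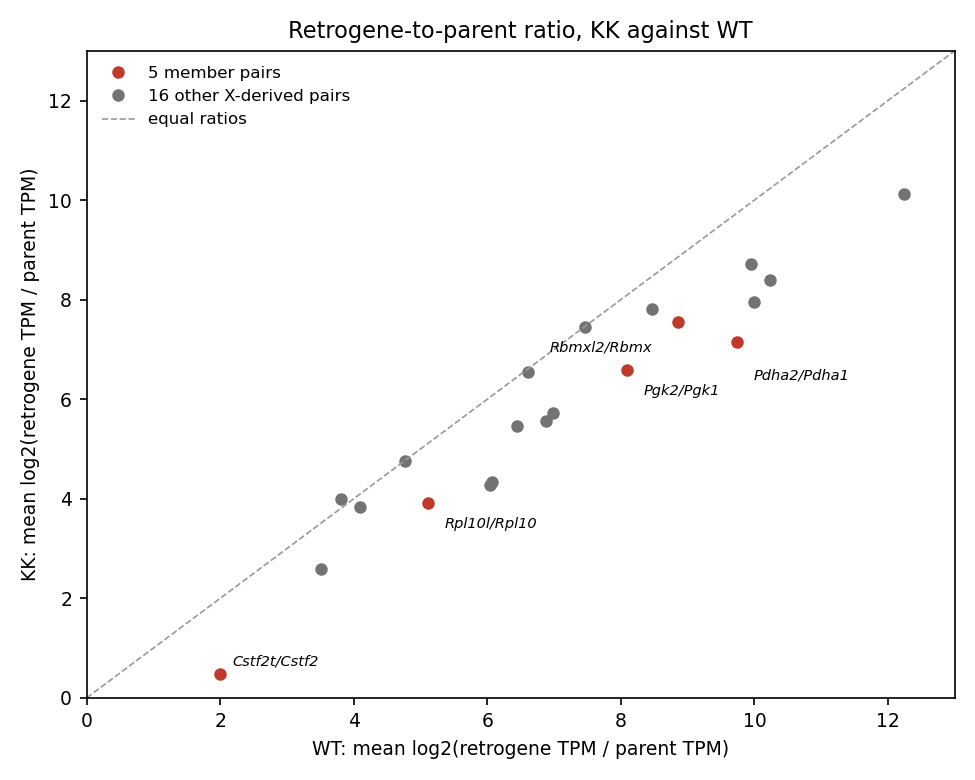
Mean log2 ratio of retrogene TPM to parent TPM in KK (vertical axis) against the same in WT (horizontal axis), with the 5 named pairs in red and 16 other pairs with an X-linked parent in grey. Points below the dashed diagonal have a lower ratio in KK. The 5 red points all do, with changes from -2.59 to -1.18. The -2.59 of the Pdha pair rests in part on 3.25 counts on a retained-intron transcript in KK replicate 2.

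Lists of marker genes were counted as well, and their part in the higher parents was not tested. Among all genes tested 22% were higher and 21.7% lower in KK. The shares higher and lower were 90% and 0% for Leydig cell markers and 70% and 0% for spermatogonial ones. They were 58.3% and 33.3% for round spermatid and 9.09% and 54.5% for pachytene spermatocyte markers. Sertoli cell markers, at 20% and 30%, were near the shares of all genes. Peritubular and endothelial markers had 50% and 0%, and macrophage markers 33.3% and 0%. Of 10 Leydig cell markers tested 9 were higher in KK and 0 lower, and their summed level was 2494.4 and 2573.6 TPM in KK against 698.1 and 735.5 TPM in WT; Insl3, a hormone gene of Leydig cells, was 3.77-fold higher (edgeR quasi-likelihood test, adjusted p = 9e-25). Of 10 spermatogonial markers tested 7 were higher and 0 lower, and the summed level of the list was 56.2 and 62.5 TPM in KK against 30.1 and 77.8 TPM in WT. Uchl1 made up much of that sum, with 66.2 TPM in WT replicate 2 and 17.9 TPM in WT replicate 1. Its expected counts, however, were 341 and 319 in KK against 164 and 199 in WT, and it was among the 7 higher markers. Without Uchl1 the sum was 24.2 and 29.6 TPM in KK against 12.2 and 11.5 TPM in WT, and the groups did not overlap. Of 12 round spermatid markers 7 were higher and 4 lower, with 17855.6 and 17278.7 TPM in KK against 19766.5 and 19613.3 TPM in WT. Of 11 pachytene spermatocyte markers 1 was higher and 6 lower, with 10879.3 and 10613.5 TPM in KK against 11018.8 and 10913.1 TPM in WT. Ldhc, the germ-cell lactate dehydrogenase gene, held most of that sum, and the other pachytene markers together had 1130.9 and 1154.3 TPM in KK against 1330.4 and 1378.6 TPM in WT, so they were present in all 4 libraries and their sum lay lower in both KK libraries. Of 10 Sertoli cell markers tested 2 were higher and 3 lower, with 114.5 and 119.1 TPM in KK against 123.9 and 125.8 TPM in WT; without KK replicate 1 or without WT replicate 1 these counts were 0 and 1. Of 8 peritubular and endothelial markers tested 4 were higher and 0 lower (11.1 and 9.1 TPM in KK against 7.7 and 7.6 TPM in WT), and of 6 macrophage markers tested 2 were higher and 0 lower (7.3 and 11.2 TPM in KK against 4.3 and 5.6 TPM in WT). Without KK replicate 1, 2 of the peritubular and endothelial markers were lower, and without KK replicate 2 or WT replicate 1 the macrophage count was 1. With limma on log2(TPM + 0.1) and log2(TPM + 1), 3 and 2 spermatogonial markers were higher in KK, and 6 and 6 Leydig cell markers. The peritubular and endothelial count was then 1 and 2, and the macrophage count 1 and 0. The spermatogonial count was 5 with effective lengths as an offset, and 9 with a length trend or scaling by library size alone. No listed marker was at 0 in all 4 libraries.

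Lists of genes that work with the products of these pairs, or that silence the X chromosome, were described in the same way. Of 11 genes of the pyruvate dehydrogenase complex and its regulators, 2 were higher in KK, 3 lower and 6 not called. The list's median log2 fold change was 0.07. Its shares of 18.2% higher and 27.3% lower were near the 22% and 21.7% among all genes tested. The higher ones were Pdk3, an X-linked kinase that switches the complex off (log2 fold change 1.07 ± 0.10; edgeR quasi-likelihood test, adjusted p = 5.6e-10), and Pdp1, a phosphatase that switches it on (0.64 ± 0.12; edgeR adjusted p = 8.3e-05). The lower ones were Dlat, the E2 core (-0.38 ± 0.04; edgeR adjusted p = 6.5e-09), Pdhb, the beta subunit that binds the Pdha product (-0.23 ± 0.04; edgeR adjusted p = 5.2e-05), and Pdhx. Of 19 genes of mRNA 3′ end processing, 1 was higher in KK, 11 were lower and 7 were not called, with a median of -0.20, against 21.7% lower and a median of 0.00 among all genes tested; with limma on either TPM scale 4 were lower. Cpsf7 (-0.46 ± 0.10; edgeR adjusted p = 0.00027) and Papolg (-0.43 ± 0.10; edgeR adjusted p = 0.0005) had the largest decreases in this list, and Cstf3, the CstF subunit that binds the Cstf2 product, was among the lower genes (-0.42 ± 0.08; edgeR adjusted p = 3.4e-05). Cstf2t was lower like these 11, whereas Cstf2 was higher. Cpsf6 was the higher one (0.31 ± 0.10; edgeR adjusted p = 0.011), and it did not pass without WT replicate 1 (0.24, edgeR adjusted p = 0.13) or with DESeq2. Of 24 factors of sex chromosome silencing, 2 were higher, 12 lower and 10 not called, with a median of -0.17, beside the same 21.7% lower among all genes. The 12 were 7 with effective lengths as an offset and 5 with limma on either TPM scale. Ube2a (1.22 ± 0.18; edgeR adjusted p = 3.4e-06) and Scml2 (0.78 ± 0.13; edgeR adjusted p = 1.7e-05), both X-linked themselves, were the higher ones. Mdc1, the adaptor that spreads the mark on histone H2AX over the sex body, was among the lower ones (-0.50 ± 0.04; edgeR adjusted p = 3.9e-11).

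Reads can be misassigned between a parent and its processed pseudogenes more easily than within a pair. The 50-base stretches were taken from the transcript with the longest coding sequence of each gene. Of these, 92.1% in Rpl10 and 68% in Pgk1 also occurred in another annotated gene. The share was 16.9% in Pdha1, 7.9% in Cstf2 and 1.5% in Rbmx. For Pgk2, Pdha2 and Cstf2t it was 0%, for Rbmxl2 0.1% and for Rpl10l 7.6%. The transcript used for Rbmx, Rbmx-202, was listed at 0 counts in KK replicate 1 and WT replicate 2. For Cstf2 it was Cstf2-201, with 13.79% and 20.53% of the gene's transcripts in KK against 52.75% and 31.31% in WT. The 15 genes that share such stretches with Rpl10 together held 3.02 and 13.16 counts in KK against 7 and 0 in WT, and the 5 that share them with Pgk1 held 1.15 and 1.11 counts in KK against 0 and 0 in WT. Both sums are small beside the counts of their parents, such as the 322.98 and 249.84 of Rpl10 in KK against 120.01 and 125 in WT. Of the annotated pseudogenes named after a member, Rpl10-ps1 alone reached 10 counts over all libraries, with 3.02 and 4.60 in KK against 2.80 and 0 in WT. The picture differed for the parents with few counts. The 2 genes sharing stretches with Pdha1, mainly Map3k15, held 13.28 and 19.83 counts in KK against 8 and 18.6 in WT, and so more than Pdha1 itself in WT (7 and 6.40). The 4 sharing them with Rbmx, mainly Rbmxl1, held 443.01 and 414 counts in KK against 497 and 645 in WT, far above the 26 and 30 of Rbmx in KK against 8 and 14 in WT. Values of these 4 parents are uncertain to the extent that the quantifier divided such reads by estimate.

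The promoters of the members were read for base composition and motifs as a description. Whether these bear on the changes between the genotypes was not tested. The windows are RefSeq sequences of GRCm38.p6, from 250 bases before to 50 after the annotated start, and all 10 members were found in the table of 27025 promoters, whose median GC content was 52.7%. GC content was 43% for Pgk2 and 66.7% for Pgk1, 29.7% for Pdha2 and 62% for Pdha1, 52% for Rpl10l and 53.7% for Rpl10, 56.7% for Cstf2t and 61% for Cstf2, and 69.3% for Rbmxl2 and 47% for Rbmx. The retrogene had the lower value in 4 pairs and the higher value in the Rbmx pair. A few motifs were searched on both strands, and a match is a description of the letters, not a binding site. The cAMP response element (CRE) TGACGTCA occurred in 0 of the 10 windows and in 1.9% of all promoters. Its shorter core TGACG, which the full element contains, occurred in Cstf2 and Pdha1 and in 21% of all promoters. The GC box GGGCGG (35.9% of all promoters) occurred 5 times in Pgk1, 2 times in Cstf2t and 1 time each in Rpl10l, Rpl10, Cstf2 and Rbmxl2. The CCAAT box CCAAT (37.9%) occurred in Pgk2, Pgk1, Rpl10, Cstf2t, Rbmxl2 and Rbmx. The TATA box letters TATAAA (14.2%) occurred in Pdha2, 44 bases before the start, and in Rbmx, 26 bases after the start. The MYB core AACNG was found in 80.4% of all promoters and in 9 of the 10 windows. The Pgk pair, whose windows differ most in GC boxes, and the Cstf2 pair, whose members changed in opposite directions, are printed 5′ to 3′ on the gene's strand, with capitals for the CRE core, GC box, CCAAT box and TATA box on either strand; the last GC boxes of Pgk1 overlap.
Pgk2 promoter, chr17:40208560-40208859, minus strand: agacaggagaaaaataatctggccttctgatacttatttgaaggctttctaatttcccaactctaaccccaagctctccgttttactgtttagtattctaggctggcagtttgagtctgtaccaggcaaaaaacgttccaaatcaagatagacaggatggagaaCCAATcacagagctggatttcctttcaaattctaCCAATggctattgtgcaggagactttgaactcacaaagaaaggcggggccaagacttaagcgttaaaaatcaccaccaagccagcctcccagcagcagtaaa
Pgk1 promoter, chrX:106186850-106187149, plus strand: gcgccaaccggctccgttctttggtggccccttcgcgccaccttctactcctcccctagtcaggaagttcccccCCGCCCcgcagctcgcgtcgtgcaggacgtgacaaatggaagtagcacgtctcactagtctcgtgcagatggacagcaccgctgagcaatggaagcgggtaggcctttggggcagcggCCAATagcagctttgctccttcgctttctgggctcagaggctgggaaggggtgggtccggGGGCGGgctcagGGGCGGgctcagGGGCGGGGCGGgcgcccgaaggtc
Cstf2t promoter, chr19:31082591-31082890, plus strand: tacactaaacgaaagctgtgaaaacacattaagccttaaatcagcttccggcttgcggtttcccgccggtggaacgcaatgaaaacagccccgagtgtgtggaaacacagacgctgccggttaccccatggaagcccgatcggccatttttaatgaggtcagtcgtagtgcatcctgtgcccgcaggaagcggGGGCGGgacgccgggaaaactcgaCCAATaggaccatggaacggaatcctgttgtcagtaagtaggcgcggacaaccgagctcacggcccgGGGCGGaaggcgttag
Cstf2 promoter, chrX:134058926-134059225, plus strand: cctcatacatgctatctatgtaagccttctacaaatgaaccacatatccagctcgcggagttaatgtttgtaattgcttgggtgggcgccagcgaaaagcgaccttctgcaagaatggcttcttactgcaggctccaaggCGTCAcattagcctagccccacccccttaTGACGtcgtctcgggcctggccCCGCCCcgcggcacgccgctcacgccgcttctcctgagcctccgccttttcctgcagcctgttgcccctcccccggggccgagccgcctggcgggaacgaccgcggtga
In the Pgk2 window the CCAAT boxes start 86 and 52 bases before the start and no GC box is found, whereas in the Pgk1 window 4 of the GC boxes lie within the 50 bases after the start.

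The tested gene whose level over the 4 libraries was nearest to each member, by Euclidean distance in log2(TPM + 1), was on an autosome in each case; among the second nearest, Tent5d (distance 0.165 from Cstf2) was on the X chromosome. Gabarap (distance 0.035) was nearest to Pgk2, Ankrd42 (0.04) to Pdha2, 1700123L14Rik (0.036) to Rpl10l, Lin9 (0.04) to Cstf2t and Ppp1r35 (0.056) to Rbmxl2. For the parents the nearest were Cd36 (0.147) for Pgk1, Fer1l6 (0.089) for Pdha1, Plin2 (0.121) for Rpl10, G6pd2 (0.134) for Cstf2 and Esrp1 (0.12) for Rbmx. Cd36 had 6.33 and 4.67 TPM in KK against 2.52 and 1.65 TPM in WT, and Plin2 had 47.61 and 42.41 TPM in KK against 18.11 and 22.72 TPM in WT. With 4 libraries such a likeness rests on level and on the difference between genotypes.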

How the data were processed

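RNA of pachytene spermatocyte fractions from 2 KK and 2 WT samples was sequenced, per the labels. The submitters' processing notes list Bowtie, mm10 and GRCm38; which quantifier and annotation release were used is not stated there. According to the file headers, the authors deposited for each gene its expected count, TPM and effective length, and for each isoform the same with its percent of the gene's transcripts. Symbols came from GENCODE M21, in which 55104 of 55364 identifiers were found; the tables held 0 mitochondrial genes.

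Expected counts were rounded and tested with edgeR 4.0.16 (R 4.3.3) by the quasi-likelihood test on genotype over all 4 libraries, with TMM scaling (also behind CPM values), the default expression filter and Benjamini-Hochberg adjustment at 0.05. A standard error is the log2 fold change over the square root of its F statistic. Retrogene-to-parent ratios use TPM, which is per length, and exact permutation tests. Alternatives used limma 3.58.1, DESeq2 1.42.0, other scalings, filters, length offsets, pseudocounts of 1 and 0.1 TPM, a replicate block and each library left out. Coding alignments used Biopython 1.88. The edgeR test was run on 4 simulated data sets of 16571 genes. In each, 200 genes with a mean of at least 1 CPM were changed in random directions. It recovered 37.5% of 1.25-fold, 64.5% of 1.5-fold, 80% of 2-fold and 99% of 4-fold changes. Unchanged genes made up 5.86% of calls. In the real data 43.7% of genes were called, a far larger share, so these rates need not hold there. Nor do they cover genes below a mean of 1 CPM, such as Pdha1.

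The named genes were the members, their annotated copies with at least 10 counts, of each list up to 2 higher and 2 lower called genes with the largest change and a mean of at least 1 CPM, and the 2 tested genes nearest in level to each member, of which the nearest is printed. D1Pas1, Pdhx, Cstf3, Prkg1, Map3k15, Nox1, Rpl39, Naa10, Gk2, Gk, G6pdx, Uchl1 and Ldhc were added after their values were seen. So were the marker sums without Uchl1 or Ldhc. A gene that the rule also names is not reported here. The members and lists were chosen with earlier results of these data known.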

Additional observations from a re-analysis of the deposited data

How the results depend on the processing

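Over 15 alternatives, Pgk1, Pdha2, Rpl10, Cstf2t and Cstf2 passed in each with their direction kept, and Pdha1 in the 14 that tested it; a filter at a mean of 1 CPM left it out. Rbmx passed in 9 and not with DESeq2 (adjusted p = 0.14), effective lengths (0.087), limma on log2(TPM + 0.1) (0.077) or log2(TPM + 1) (0.06), or without KK replicate 2 or WT replicate 1. Genes called numbered 7237, and 4662 with effective lengths, 3758 and 3826 with limma at 0.1 and 1 TPM, 4969 with DESeq2 and 5925 to 6552 with a library left out. Scaling by library size alone moved the median of all genes to 0.09, with 64.2% of calls higher in KK in place of 50.4%; Pgk2 then passed as higher (0.11; edgeR adjusted p = 0.015), making 1 retrogene higher, Rpl10l turned to 0.021, and 5 of the other retrogenes were higher. With a length trend 9 of those were lower, Rpl10l was lower (-0.20; edgeR adjusted p = 9.6e-06), Pgk2 turned to -0.021 and Rbmxl2 to -0.058. Leaving out a library gave 2 to 3 of the other retrogenes higher and 3 to 5 lower, and 3 to 5 of the other parents higher; those parents numbered 3 with DESeq2, 2 with effective lengths, and 2 and 3 with limma at 0.1 and 1 TPM. Near 0, Pgk2 was -0.007 to 0.04 with a library left out, and Rbmxl2 was -0.071 to 0.051, -0.00085 with DESeq2, -0.0012 with RLE factors, -0.018 with effective lengths, -0.0023 with either limma setting and -0.011 without a filter. The pair changes lay within -3.04 to -0.94 for Pdha, -1.81 to -1.13 for Pgk, -1.29 to -1.08 for Rpl10, -1.65 to -1.36 for Cstf2 and -1.68 to -0.51 for Rbmx. Their sign could not turn when a library was left out, because the KK and WT ratios of each pair did not overlap. The replicate block reuses the same ratios, so it could not turn the sign either. With scaled counts or with 1 or 0.1 TPM added, the sign was kept. With 1 library against 2 their exact permutation p cannot fall below 0.333. The cause of these differences was not tested. Same-numbered libraries share only a number (correlation of their deviations -0.0776 over 14391 genes); with the replicate block 7309 genes were called, no member's call changed and the pair changes were equal. Low counts limit Pdha1 and Rbmx.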
